A study of Mus musculus with 33 samples.

Results

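The 275 guide RNAs (gRNAs) described here were designed against the stretch 2 to 5 kb upstream of the mouse gene Zfp42. They were taken from a library of 3908 gRNAs with a genomic interval, as all those whose interval midpoint lies in chr8:43309010-43311868 (mm10, positions as deposited). The choice used position only and no counts. In the RefSeq genes of this assembly, Zfp42 spans chr8:43295067-43307009 on the minus strand, so larger coordinates are upstream, and distances below run from its 5' end at 43307009 to the interval midpoint. No RefSeq gene of the table used overlaps the window, and the next gene upstream, Adam26b, starts 208.0 kb beyond it, so the window is intergenic.

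The library served to mutate DNA around Zfp42 with CRISPR-Cas9 in cultured embryonic stem cells of the mouse, which can form all tissues of the body. The cells carried GFP in place of sequence at the transcription start site of Zfp42, and a placeholder guide at ROSA26, a locus used for stable insertion, that was exchanged for a library gRNA. After gRNA electroporation, gRNAs were counted from genomic DNA of 3 populations: GFP-negative, GFP-medium and bulk, with 4 replicates each. All 12 libraries share the reporter, the placeholder locus and the medium, which was Knockout DMEM with serum, LIF, GSK-3 inhibitor XV and UO126, an inhibitor of MEK. The labels do not state the gates or whether the replicates of the line were separate clones or cultures, so p-values measure the spread between these libraries.

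Zfp42, also called Rex1, encodes a zinc finger protein that is highly expressed in undifferentiated embryonic stem cells and is lost on differentiation, which makes it a widely used marker of the pluripotent state. Cas9 guided by a gRNA cuts its target, and error-prone repair leaves small insertions or deletions there. If the target lies in a promoter or an enhancer, a distal DNA element that raises transcription of a gene, such mutations can lower the reporter, and the gRNA is then over-represented among dim cells. The screen asks at which positions this happens.

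Library totals, placeholder left out, were 252023 to 487732 counts in GFP-negative, 121455 to 268197 in GFP-medium and 39096 to 82959 in bulk libraries. The 10 GFP-targeting gRNAs, the positive controls, held 23.4 ± 5.74% of counts in GFP-negative, 0.384 ± 0.391% in GFP-medium and 0.589 ± 0.198% in bulk libraries (SD, n = 4 each). The placeholder's share of all counts was 1.09% and 1.22% in bulk replicates 2 and 1 but 22.5% and 23.5% in bulk replicates 3 and 4, and replicates 1 and 2 were therefore also compared apart from 3 and 4. This split was read from the counts, and the labels name no batch.

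The gRNAs tile the window densely and share much of their target sequence. Neighbouring midpoints lie a median of 4 bp apart, 269 of the 275 intervals overlap another, and together they cover 71.1% of the 2859 bp. Members are thus no independent probes of the window. Many were absent from every library: 124 of 275 had a count anywhere and 151 (54.9%) had none, against 2199 of 3908 (56.3%) without a count in the whole library. Detection followed the length of the deposited interval. All 57 members with a 22-bp interval (both ends counted) were detected, against 67 of 218 (30.7%) with a 23-bp interval, and the whole library shows the same split, 99.6% of 716 against 31.2% of 3192. What sets this split was not tested. The detected members cover 49.1% of the window, and the longest stretch without one runs between midpoints 4426 and 4678 bp upstream.

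The 2 members nearest to Zfp42, chr8:43309013-43309035 and chr8:43309014-43309036, had no count in any library. Of the 2 gRNAs just outside, chr8:43308969-43308991 had no count either, and chr8:43308978-43308999 averaged 298 CPM (counts per 1000000 library counts) in GFP-negative, 741 CPM in GFP-medium and 830 CPM in bulk libraries. At the far edge, chr8:43311842-43311863 averaged 0, 0 and 106 CPM in GFP-negative, GFP-medium and bulk libraries, and chr8:43311846-43311868 averaged 1.54, 0 and 223 CPM in the same order. The library then has a gap, and the next gRNAs lie 13178 and 13193 bp upstream. Of these, chr8:43320176-43320198 had no count and chr8:43320191-43320213 averaged 0 CPM in GFP-negative, 42.2 CPM in GFP-medium and 1024 CPM in bulk libraries.

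Summed over the window, the upstream gRNAs were more abundant in GFP-medium and less abundant in GFP-negative cells than in bulk. They held 3.64%, 2.63%, 2.47% and 4.55% of the counts in GFP-negative replicates 1 to 4. In GFP-medium replicates they held 19.8%, 14.4%, 14.2% and 12.6%. In bulk replicates they held 8.98%, 7.58%, 7.31% and 7.34%. The 3 populations did not overlap, and GFP-medium was highest and GFP-negative lowest at every replicate number. The 95% Clopper-Pearson intervals of these shares are at most 0.519 percentage points wide and cover counting error only, since PCR reads are not independent molecules.

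The mean share was 3.32 ± 0.968% in GFP-negative, 15.3 ± 3.12% in GFP-medium and 7.80 ± 0.798% in bulk libraries (SD, n = 4 each). The log2 ratio of mean shares was 0.97 for GFP-medium over bulk, and the mean log2 ratio of same-numbered libraries was 1.03 in replicates 1 and 2 and 0.87 in replicates 3 and 4. For GFP-negative over bulk it was -1.23, with -1.42 in replicates 1 and 2 and -1.13 in replicates 3 and 4. For GFP-negative over GFP-medium it was -2.20, with -2.45 and -1.995 in the same pairs of replicates. Shares within a library are relative, and the GFP-targeting gRNAs take up part of the GFP-negative counts. With those gRNAs left out of the totals, the upstream gRNAs held 4.29 ± 0.922% in GFP-negative, 15.3 ± 3.11% in GFP-medium and 7.85 ± 0.803% in bulk libraries, in the same order. Under scaling by library totals, the median log2 fold change of the 45 library-wide features fitted below was -1.0033 in GFP-negative against bulk. In GFP-medium against bulk that median was -0.7105. The lower GFP-negative share therefore cannot be read as particular to the window, while the higher GFP-medium share was opposite in sign to the median.

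Counts were also summed over fixed 1-kb tiles and fitted across the whole library, 44 tiles plus the GFP-targeting gRNAs as a further feature, with edgeR's quasi-likelihood test and Benjamini-Hochberg adjustment over all 45. The upstream gRNAs fall in 3 tiles: a near tile at chr8:43309000-43309999 with 124 gRNAs, a middle tile at chr8:43310000-43310999 with 61, and a far tile at chr8:43311000-43311999 with 90. Fold changes depend on the scaling, because TMM (trimmed mean of M-values) scaling sets them relative to the majority of the tiles. It placed the median log2 fold change of all features 0.45 higher than scaling by library totals for GFP-medium against bulk, 0.99 higher for GFP-negative against bulk and 0.42 higher for GFP-negative against GFP-medium.

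The far tile, 3991 to 4990 bp upstream, stood out most clearly in GFP-medium cells. It held 7.03%, 4.16%, 7.53% and 4.07% of counts in GFP-medium replicates 1 to 4, against 2.97%, 2.19%, 2.13% and 2.30% in bulk replicates. Every GFP-medium library was above every bulk library. Its log2 fold change in GFP-medium against bulk was 1.81 ± 0.47 (SE; edgeR adjusted p = 0.00771), the 3rd highest of the 45 features, and it passed with each of the 12 libraries left out in turn. Under scaling by library totals it was 1.25 (adjusted p = 0.0653), in replicates 1 and 2 alone 1.80 (adjusted p = 0.0449) and in replicates 3 and 4 alone 1.99 (adjusted p = 0.115).

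The middle tile, 2991 to 3990 bp upstream, was higher in GFP-medium on average but varied more. It held 1.02%, 3.63%, 2.64% and 5.10% of counts in GFP-medium replicates 1 to 4, against 1.36%, 1.59%, 1.56% and 1.47% in bulk replicates. Replicate 1 of GFP-medium lay below all bulk libraries and the other 3 above them. Its log2 fold change was 1.56 ± 0.49 (SE; edgeR adjusted p = 0.0250), and a fit blocked on replicate number gave 1.41 (adjusted p = 0.0560). The call was lost without GFP-medium replicate 4 (1.14, adjusted p = 0.219), without any 1 of the bulk replicates (adjusted p 0.0670 to 0.0788) and under library totals (1.05, adjusted p = 0.174). Apart, it was 1.14 in replicates 1 and 2 (adjusted p = 0.369) and 2.01 in replicates 3 and 4 (adjusted p = 0.101).

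The near tile, 1991 to 2990 bp upstream, held 11.7%, 6.62%, 4.01% and 3.45% of counts in GFP-medium replicates 1 to 4, against 4.66%, 3.80%, 3.61% and 3.57% in bulk replicates. The populations overlapped, and GFP-medium replicate 1 was far above the rest. Its log2 fold change was 1.34 ± 0.47 (SE; edgeR adjusted p = 0.0444). Without GFP-medium replicate 1 it was 0.66 (adjusted p = 0.348), it passed in only 3 of the 12 fits that leave out a library, and under library totals it was 0.72 (adjusted p = 0.216). Apart, it was 1.81 in replicates 1 and 2 (adjusted p = 0.0449) and 0.67 in replicates 3 and 4 (adjusted p = 0.630). All 3 tiles were thus called higher in GFP-medium, where 20.0% of all 45 features were called higher and 4.44% lower.

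In GFP-negative cells none of the 3 tiles was called against bulk, while 13.3% of all features were called higher and 8.89% lower. The near tile held 2.65%, 1.85%, 0.654% and 3.24% of counts in GFP-negative replicates 1 to 4, all below the bulk values given above. Its log2 fold change was 0.04 ± 0.46 (SE; edgeR adjusted p = 0.992; 95% interval -0.94 to 1.01). This value turns with the scaling and was -0.90 under library totals (adjusted p = 0.103).

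The middle tile held 0.548%, 0.385%, 0.601% and 0.889% of counts in GFP-negative replicates 1 to 4, also below every bulk library, with a log2 fold change of -0.40 ± 0.48 (SE; edgeR adjusted p = 0.703). The far tile held 0.451%, 0.394%, 1.22% and 0.419%, again below every bulk library, with a log2 fold change of -1.01 ± 0.46 (SE; edgeR adjusted p = 0.119). Replicate 3 of GFP-negative was well above the other 3 in the far tile. Under library totals the far tile was lower, with a log2 fold change of -1.95 (adjusted p = 0.00439), and it also passed without GFP-negative replicate 3 (-1.53, adjusted p = 0.0153). The far tile's unadjusted edgeR p against bulk was 0.0397, and by DESeq2 none of the 3 tiles passed after adjustment. In replicates 1 and 2 alone the near, middle and far tiles were at 0.07, -0.68 and -1.62, and in replicates 3 and 4 alone at 0.07, -0.11 and -0.59, with none called.

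Set directly against GFP-medium, GFP-negative libraries held less of the middle and far tiles. The log2 fold change was -2.83 ± 0.48 for the far tile (SE; edgeR adjusted p = 2.45e-04) and -1.96 ± 0.49 for the middle tile (SE; edgeR adjusted p = 0.00590). It was -1.31 ± 0.47 for the near tile (SE; edgeR adjusted p = 0.0522), which passed with the replicate block (-1.23, adjusted p = 0.0238). Of all features 13.3% were called lower and 8.89% higher. The middle tile did not pass without GFP-medium replicate 4 (-1.53, adjusted p = 0.0934). In replicates 1 and 2 alone the far tile was at -3.42 (adjusted p = 0.0112), the middle tile at -1.81 (0.191) and the near tile at -1.74 (0.0682), and in replicates 3 and 4 alone they were at -2.58 (0.0814), -2.12 (0.0814) and -0.60 (0.691).

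The upstream gRNAs were also compared with those within 2 kb of the Zfp42 5' end, 453 promoter gRNAs that held 15.5 ± 2.53% of counts in GFP-negative, 21.9 ± 1.10% in GFP-medium and 13.2 ± 0.245% in bulk libraries (SD, n = 4 each). This promoter set covers both sides of the 5' end and so includes gRNAs up to 2 kb inside Zfp42. For each library the log2 ratio of tile counts to promoter counts was taken (1 count added to each). In GFP-negative libraries the ratio differed from bulk by -1.33 for the near tile, -1.58 for the middle tile and -2.33 for the far tile, with all 4 GFP-negative libraries below all 4 bulk libraries in each. The 2-sided exact permutation test gave p = 0.0286 for each, the smallest it can give with 4 against 4, and 0.0571 after adjustment over the 6 comparisons. That test treats the libraries as unpaired. An exact permutation test restricted to swaps inside each same-numbered pair gave p = 0.125 for each tile, the smallest it can give with 4 pairs, and all 4 pairs had the same direction.

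In GFP-medium libraries the same ratio differed from bulk by -0.18 for the near, 0.10 for the middle and 0.47 for the far tile (exact permutation test, adjusted p = 0.789, 0.914 and 0.214). A difference between these tiles and this promoter set was therefore not resolved in GFP-medium cells. Against the 442 gRNAs 13 to 17 kb upstream, which held 4.65 ± 1.59% of counts in GFP-negative, 22.5 ± 7.28% in GFP-medium and 10.6 ± 0.710% in bulk libraries, none of the 6 ratios passed. The largest difference from bulk was -0.87 for the far tile in GFP-negative libraries (exact permutation test, adjusted p = 0.686).

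Within the window the GFP-medium signal was uneven. In fixed bins of 250 bp the GFP-negative mean was below the bulk mean in all 12 bins and below the GFP-medium mean in all 12, and the GFP-medium mean was above the bulk mean in 9. In 2 neighbouring bins every GFP-medium library lay above every bulk library. Bins were not counted in this way over the rest of the library, so these numbers cannot be read as particular to the window. In the bin 4001 to 4250 bp upstream, with 19 detected gRNAs, GFP-negative libraries held 0.369 ± 0.201%, GFP-medium libraries 3.91 ± 2.11% and bulk libraries 1.43 ± 0.164% of counts (SD, n = 4 each). In the bin 3751 to 4000 bp, with 5 detected gRNAs, they held 0.0800 ± 0.147%, 1.05 ± 0.570% and 0.249 ± 0.0817% in the same order.

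The 2 ends of the window and an inner bin, 3251 to 3500 bp upstream, did not share this excess. In that inner bin, with 1 detected gRNA, GFP-negative libraries held 9.88e-05 ± 1.98e-04%, GFP-medium libraries 0.0203 ± 0.0217% and bulk libraries 0.0757 ± 0.0323%. In the bin nearest to the gene, 2001 to 2250 bp upstream, GFP-negative libraries held 0.478 ± 0.751%, GFP-medium libraries 0.574 ± 0.232% and bulk libraries 0.823 ± 0.185%. In the farthest bin, 4751 to 4859 bp upstream, they held 0.00160 ± 0.00208%, 0.0161 ± 0.0175% and 0.264 ± 0.143%, so gRNAs there were nearly absent from both sorted populations. These bins are described and were not tested.

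Sorted libraries drew on few gRNAs, and on different ones in different replicates. Of the 275 members, 19 to 37 were counted in a GFP-negative library, 47 to 82 in a GFP-medium library and 120 to 124 in a bulk library. Of all 3918 gRNAs, 335 to 540, 475 to 957 and 1598 to 1689 were counted in the same order, so few gRNAs were counted library-wide. Members made up 5.67% to 7.31% of the counted gRNAs in GFP-negative, 8.57% to 10.5% in GFP-medium and 7.34% to 7.63% in bulk libraries. None was counted in all 4 GFP-negative libraries (2.20% of the library were) and 8 in 3 of them (2.91%, against 3.84% of the library). In all 4 GFP-medium libraries 24 were counted (8.73%, against 4.84% of the library), and in all 4 bulk libraries 116 (42.2%, against 37.2%). The top gRNA held 19.8% to 34.6% of the upstream counts in GFP-negative, 8.77% to 25.9% in GFP-medium and 2.76% to 6.32% in bulk libraries. This top share was not taken for other parts of the library. Across replicates, 74 members (26.9%) were counted in both sorted populations, against 21.6% of the library. Another 2 (0.727%) were counted in GFP-negative but not GFP-medium, against 2.20% of the library, 37 (13.5%) in GFP-medium but not GFP-negative, against 10.6%, and 11 (4.00%) in bulk alone, against 9.26%. These shares were not tested.

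The gRNAs of a GFP-negative library were mostly those of the GFP-medium library of the same replicate number. Of the members counted in a GFP-negative library, 73.7% to 90.6% (median 87.5%) were counted in the GFP-medium library of the same number, which is 29.8% to 42.7% of the members counted in that GFP-medium library. With a GFP-medium library of another number the share was 40.6% to 84.2% (median 65.7%) of the GFP-negative members and 19.5% to 36.2% of the GFP-medium members. By counts, the shared members held 92.5% to 95.1% of the upstream GFP-negative counts at the same number and 31.4% to 92.6% at other numbers. This overlap was taken for the upstream gRNAs only. Without the same values for the whole library, it cannot be read as particular to them.

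In GFP-medium against bulk, 6 upstream gRNAs were called higher by DESeq2, which called 2.46% of all 1342 tested gRNAs higher, while edgeR called no upstream gRNA and none of the library higher (0.0% of 1342), and no upstream gRNA had an unadjusted edgeR p under 0.05. These gRNAs lie 2882, 3792, 3992, 4053, 4135 and 4150 bp upstream, so 5 of the 6 fall between 3792 and 4150 bp. That span was drawn around the called gRNAs themselves, and the last 2 overlap. The bins 3751 to 4000 and 4001 to 4250 bp upstream hold 5 and 19 of the 124 detected members. Whether the calls cluster was not tested.

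The gRNA at chr8:43311149-43311170, 4150 bp upstream, was the only member whose 4 GFP-medium values all exceeded its 4 bulk values, a pattern found in 0.255% of the 3918 gRNAs of the library, GFP-targeting ones included. It had 1204, 8773, 10440.1 and 1926 CPM in GFP-medium replicates 1 to 4, against 754, 374, 276 and 895 CPM in bulk replicates. In GFP-negative it was counted in replicate 2 alone, at 794 CPM. The log2 fold change in GFP-medium against bulk was 5.26 by DESeq2 (adjusted p = 0.0223) and 3.87 ± 2.38 by edgeR (SE; adjusted p = 0.319).

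Its neighbour at chr8:43311134-43311155, 4135 bp upstream, overlaps it and had 24172, 7700, 9362 and 26.9 CPM in GFP-medium replicates 1 to 4, against 585, 1061, 553 and 1407 CPM in bulk replicates. In GFP-negative it had 288 CPM in replicate 3 and no count in the other 3. GFP-medium replicate 4 thus lay far below bulk and the other 3 far above. The log2 fold change in GFP-medium against bulk was 5.85 by DESeq2 (adjusted p = 0.00387) and 4.39 ± 2.31 by edgeR (SE; adjusted p = 0.214). In GFP-negative against GFP-medium it was called lower by edgeR, at -7.76 ± 2.70 (SE; adjusted p = 0.0349).

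A further gRNA close by, at chr8:43311052-43311073 and 4053 bp upstream, had 21514, 254, 7665 and 121 CPM in GFP-medium replicates 1 to 4, against 1416, 1555, 1681 and 1816 CPM in bulk replicates. It was even across bulk and split in GFP-medium, with replicates 1 and 3 far above bulk and replicates 2 and 4 far below. In GFP-negative it had 0, 2.05, 446 and 849 CPM. The DESeq2 log2 fold change in GFP-medium against bulk was 4.47 (adjusted p = 0.0240), and the edgeR value 3.07 ± 2.16 (SE; adjusted p = 0.422).

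The gRNA at chr8:43310791-43310812, 3792 bp upstream, had 0, 10011, 7633 and 2835 CPM in GFP-medium replicates 1 to 4, against 231, 1157, 438 and 1151.0 CPM in bulk replicates. In GFP-negative it had 3.52, 2.05, 0 and 0 CPM, below every bulk library. It was called lower in GFP-negative by edgeR, both against bulk (log2 fold change -7.80 ± 2.65, SE; adjusted p = 0.0144) and against GFP-medium (-11.22 ± 3.04, SE; adjusted p = 0.0253). At chr8:43310990-43311012, 3992 bp upstream, GFP-medium replicates 1 to 4 had 788, 8299.9, 0 and 1003 CPM, against 262, 96.4, 184 and 512 CPM in bulk replicates. This gRNA was uncounted in GFP-negative libraries. Taking 3 counts per GFP-negative library as the limit of detection, it was at least 249.4-fold lower in GFP-negative than in GFP-medium (edgeR adjusted p = 0.0253), and at least 59.0-fold without GFP-medium replicate 2, which held most of its counts. For this gRNA, for chr8:43310791-43310812 and for chr8:43311134-43311155, the call of GFP-negative against GFP-medium did not hold with the replicate block (edgeR adjusted p = 0.183 for all 3) or without GFP-negative replicate 1 (0.0575 to 0.0673).

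The remaining 1 of the 6, at chr8:43309881-43309902 and 2882 bp upstream, had 19518, 3050.0, 0 and 289.5 CPM in GFP-medium replicates 1 to 4, against 416, 434, 230.3 and 1279 CPM in bulk replicates. Replicates 1 and 2 of GFP-medium were above bulk and replicate 3 had no count. In GFP-negative it was counted in replicate 2 alone, at 30.8 CPM.

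The highest GFP-medium value of all members came from replicate 1. In bulk and in GFP-negative, too, this gRNA had its own highest value in replicate 1, though other members were higher there. The gRNA at chr8:43309951-43309973, 2953 bp upstream, had 51166 CPM in GFP-medium replicate 1 and no count in the other 3 GFP-medium libraries, against 2217, 133, 299 and 128 CPM in bulk replicates 1 to 4. In GFP-negative it had 222 CPM in replicate 1 only. With the most counted gRNA of each tile left out, the near tile kept its call in GFP-medium against bulk (log2 fold change 1.13, edgeR adjusted p = 0.0330). At chr8:43310728-43310750, 3730 bp upstream, GFP-medium replicates 1 to 4 had 354, 0, 338 and 18005 CPM, against 108, 24.1, 299 and 307 CPM in bulk replicates, and GFP-negative had no count. It was at least 462-fold lower in GFP-negative than in GFP-medium (edgeR adjusted p = 0.0253, or 0.183 with the replicate block), and at least 22.8-fold without GFP-medium replicate 4.

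The member with the highest mean in bulk, chr8:43309597-43309619 at 2599 bp upstream, was steady in GFP-medium. It had 5735, 6063, 4347 and 3252 CPM in GFP-medium replicates 1 to 4, against 5681, 1796, 1105 and 1279 CPM in bulk replicates. Bulk replicate 1 lay within the GFP-medium range and the other 3 below it. Its first rank in bulk rests on that replicate, and in bulk replicates 2 to 4 chr8:43310703-43310724 was higher. In GFP-negative it was counted in replicate 4 alone, at 698 CPM. The edgeR log2 fold change in GFP-medium against bulk was 1.69 ± 2.12 (SE; adjusted p = 0.731).

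Among GFP-negative libraries the highest values each came almost entirely from 1 replicate, and the 4 gRNAs that follow lie in the near tile. The gRNA at chr8:43309127-43309149, 2129 bp upstream, had 15757 CPM in GFP-negative replicate 4 and no count in the other 3, against 1124, 1808, 507 and 1125 CPM in bulk replicates 1 to 4. In GFP-medium replicates it had 4.72, 328, 535 and 377 CPM, all below bulk replicates 1, 2 and 4. The log2 fold change in GFP-negative against bulk was 2.02 ± 2.39 by edgeR (SE; adjusted p = 0.587).

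At chr8:43309517-43309538, 2518 bp upstream, GFP-negative replicate 1 had 12076 CPM and the other 3 no count, against 400.3, 832, 1428 and 614 CPM in bulk replicates 1 to 4. GFP-medium replicates had 15208, 0, 0 and 4626 CPM, so replicate 1 was high in both sorted populations. At chr8:43309609-43309631, 2611 bp upstream, GFP-negative replicates had 8754.5, 0, 67.2 and 0 CPM, and GFP-medium replicates 4659, 7.46, 2001 and 444 CPM, against 1016, 747, 529.7 and 281 CPM in bulk replicates. Replicate 1 was again high in both sorted populations. Close to it, chr8:43309619-43309640 at 2620 bp upstream had 7348.5 CPM in GFP-negative replicate 4 alone, where GFP-medium replicate 4 had 727 CPM and bulk replicate 4 had 1279 CPM.

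Counts in 3 of 4 GFP-negative libraries were the most any member had, and the gRNA at chr8:43309663-43309685, 2665 bp upstream, was the most even of these. It had 820, 972, 837 and 0 CPM in GFP-negative replicates 1 to 4, against 30.8, 711, 507 and 76.7 CPM in bulk replicates. In GFP-medium it had 28.3, 813, 255 and 0 CPM. The 3 counted GFP-negative libraries lay above all bulk libraries, and replicate 4 had no count. The edgeR log2 fold change in GFP-negative against bulk was 1.75 ± 2.31 (SE; adjusted p = 0.627).

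Among the members, 11 pairs start at the same base and differ by 1 bp in length, and both gRNAs of each pair were detected. The pair at chr8:43311044-43311065 and chr8:43311044-43311066, about 4045 bp upstream, was lost alike from GFP-negative cells. The shorter had no count in GFP-negative and 0, 0, 0 and 1050.4 CPM in GFP-medium replicates 1 to 4, against 1509, 784, 944 and 1023 CPM in bulk replicates. The longer also had no count in GFP-negative and 0, 0, 0 and 13.5 CPM in GFP-medium, against 2001, 832, 668 and 460.4 CPM in bulk. In GFP-negative against bulk the shorter was at least 105-fold lower (edgeR adjusted p = 0.00883) and the longer at least 97.9-fold lower (adjusted p = 0.00365), or at least 64.6-fold without bulk replicate 1. In GFP-medium they differed in replicate 4, and only the longer was called lower against bulk (edgeR log2 fold change -7.49, adjusted p = 0.0396, against -1.54, adjusted p = 0.797, for the shorter), a difference that was not tested.

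Another such pair differed between its 2 gRNAs. At chr8:43309322-43309344 the longer gRNA had 334, 5197.5, 0 and 3.97 CPM in GFP-negative replicates 1 to 4, against 1678, 844, 576 and 691 CPM in bulk. The shorter, chr8:43309322-43309343, had 7.04, 426.5, 0 and 1611 CPM in GFP-negative, against 862, 1844, 1589 and 1125 CPM in bulk. Replicate 2 was highest for the longer and replicate 4 for the shorter, although their targets differ by 1 bp.

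Most single calls by edgeR were losses from the sorted populations. Of the 275 members 112 passed the filter on low counts, and the calls do not speak for those that did not. In GFP-negative against bulk edgeR called 50 of 112 lower (44.6%), where the whole library had 44.6%, and 40 of the 50 had no GFP-negative count. A gRNA with no count in a population passes the filter through the other populations only. It can then not come out higher there, so the direction of such calls was fixed in advance. None was called higher, where the library had 0.596%, and none had an unadjusted p under 0.05 in that direction by edgeR or by DESeq2. DESeq2 called 41 lower (39.0% in the library) and none higher (4.32% in the library).

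In GFP-medium against bulk edgeR called 13 of 112 lower (11.6%, against 19.7% in the library), or 23 with the replicate block. DESeq2 also called 13 lower, where it called 21.3% of the library. In GFP-negative against GFP-medium edgeR called 36 of 112 lower (32.1%, against 21.9% in the library) and none higher (3.65% in the library). With the replicate block, without GFP-negative replicate 1, in replicates 1 and 2 alone and in replicates 3 and 4 alone, no member was called lower in that comparison, while DESeq2 called 32 lower (18.8% in the library) and none higher (3.35% in the library). In this comparison 5 members had every GFP-negative library below every GFP-medium library (0.536% in the library) and none the reverse (0.383% in the library), and no upstream gRNA had an unadjusted p under 0.05 towards higher by either tool.

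By edgeR, the median log2 fold change of the 112 tested members was -3.92 in GFP-negative against bulk, 0.89 in GFP-medium against bulk and -3.56 in GFP-negative against GFP-medium. Over all 1342 tested gRNAs the edgeR medians were -4.06, -1.25 and -1.55 in the same order. The DESeq2 medians were -2.55, 2.10 and -3.66 for the members and -2.85, 0.03 and -1.47 for all tested gRNAs. DESeq2 thus placed single gRNAs higher than edgeR in both comparisons against bulk. The comparisons share libraries and are given side by side as descriptions.

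Among the losses were gRNAs common in bulk. That at chr8:43310703-43310724, 3704 bp upstream, was at 0 in all 4 GFP-negative libraries, against 3172, 2411, 1612 and 2021 CPM in bulk replicates 1 to 4. It was at least 228-fold lower in GFP-negative (edgeR adjusted p = 0.00548). In GFP-medium it had 48.5 CPM in replicate 2 and no count in the others (edgeR adjusted p = 0.109 against bulk, or 0.0408 with the replicate block). It lies next to chr8:43310728-43310750, which was high in a GFP-medium library, so these neighbours differed.

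At the far end, the gRNA at chr8:43311791-43311812, 4792 bp upstream, had no count in any sorted library, against 1493, 916, 1013 and 818.5 CPM in bulk replicates. It was at least 105-fold lower in GFP-negative (edgeR adjusted p = 0.00419) and at least 60.4-fold lower in GFP-medium (edgeR adjusted p = 0.0114). The same held near the other end for chr8:43309045-43309067, 2047 bp upstream, with no count in any sorted library against 1109, 603, 622 and 844 CPM in bulk replicates. It was at least 78.5-fold lower in GFP-negative (edgeR adjusted p = 0.00302) and at least 45.2-fold lower in GFP-medium (edgeR adjusted p = 0.00806). Without a sorted count, both of these gRNAs passed the filter through bulk alone, so the tests against bulk could only find them lower. Across all members, 72 were below bulk in every GFP-negative library (22.6% of the library) and 28 in every GFP-medium library (17.6% of the library). None was above bulk in every GFP-negative library (0.408% of the library).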

How the data were processed

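The measurements are gRNA counts of 12 libraries of the Zfp42 reporter line. The raw counts per gRNA were deposited by the authors as whole numbers without normalization. Per the labels' protocols, genomic DNA was extracted with a PureLink kit and libraries were made by PCR with an in-house protocol. Positions are mm10, per the submitters' processing notes. The counting program, and whether intervals count from 0 or 1, are not given in the labels or headers. The gRNA sequences are not used here, and gRNAs are named by their intervals. The members, tiles and lists were chosen with earlier results of these data known.

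Sample titles gave the population and replicate number. The placeholder was left out of totals (its share is in the report). Counts of all 3918 gRNAs, and sums over 1-kb tiles, were each fitted with edgeR 4.0.16 in R 4.3.3: filterByExpr (minimum count 10), TMM, robust quasi-likelihood F test, all 12 libraries in the fit, population as the factor and Benjamini-Hochberg adjustment over all features at 0.05. This left 1342 gRNAs and 45 tile features. CPM and shares use totals of library gRNAs. Bounds on folds take 3 counts per library without a count, and leave out the spread between replicates. Exact permutation tests and Clopper-Pearson intervals used scipy 1.17.1. DESeq2 1.42.0 gave no adjusted p for 26 of the 112 tested members, which stay uncalled. The fits were tested on simulated data. Those data had a fixed spread around bulk means and did not copy the uneven counts of sorted libraries. They therefore bear on no call given here.

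Alternatives were library totals in place of TMM, DESeq2, other filters, the replicate block, each library left out, replicates 1 and 2 apart from 3 and 4, and other sets for the promoter ratio. Same-numbered libraries deviated together from their population means in all 12 pairs (r 0.118 to 0.265, against -0.147 to -0.005 in 36 pairs of different numbers), and the labels name the same replicate of the line, so the numbers were taken to pair the libraries. The main fits and their p-values leave this pairing out. It enters only in the replicate block and in the swaps inside same-numbered pairs. Named gRNAs passed 0.05 in a comparison (at most 10 per direction by fold change), or were counted in at least 3 of 4 libraries of a sorted population (at most 10 by mean CPM), or were among the 5 most abundant of a population, and the 2 gRNAs on each side of each edge were added. The 6 gRNAs called by DESeq2 were singled out after their values were seen.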

Additional observations from a re-analysis of the deposited data

Results flagged for a closer look

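In 26 of 84 groups of 4 libraries the highest or lowest value stood apart from the other 3 by Dixon's 95% criterion. Chance flags about 1 in 20 groups of unselected normal values, but most of these gRNAs were named for high values or large folds and many hold zeros, so the number found cannot be read against that rate. In summed shares they were GFP-negative replicate 3 of the far tile, at 1.22% of counts, and bulk replicate 1 of all upstream gRNAs together, at 8.98%.

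The rest were single gRNAs. High in GFP-negative replicate 1 stood chr8:43309517-43309538 at 12076 CPM, chr8:43309609-43309631 at 8754.5 CPM and chr8:43311395-43311417 at 2875 CPM. In GFP-negative replicate 2 the same was seen for chr8:43309322-43309344 at 5197.5 CPM, chr8:43309940-43309961 at 2278 CPM and chr8:43309943-43309964 at 1704 CPM. In GFP-negative replicate 3 it was seen for chr8:43310677-43310699 at 2532 CPM and chr8:43311273-43311294 at 5719.9 CPM. In GFP-negative replicate 4 it was seen for chr8:43309127-43309149 at 15757 CPM, chr8:43309619-43309640 at 7348.5 CPM and chr8:43311687-43311709 at 659 CPM, while chr8:43309663-43309685 was low there, at 0 CPM.

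In GFP-medium the single high values were chr8:43309881-43309902 at 19518 CPM and chr8:43309951-43309973 at 51166 CPM in replicate 1, and chr8:43309092-43309113 at 999.3 CPM and chr8:43310990-43311012 at 8299.9 CPM in replicate 2. In replicate 3 they were chr8:43309943-43309964 at 148 CPM and chr8:43311273-43311294 at 12424 CPM, and in replicate 4 chr8:43310728-43310750 at 18005 CPM and chr8:43311044-43311065 at 1050.4 CPM. In bulk they were chr8:43309597-43309619 at 5681 CPM and chr8:43309951-43309973 at 2217 CPM in replicate 1, chr8:43311273-43311294 at 1267 CPM in replicate 3 and chr8:43309943-43309964 at 639.5 CPM in replicate 4. The gRNA chr8:43311273-43311294 stood apart in replicate 3 of all 3 populations.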

How the results depend on the processing

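The alternatives were set with the earlier results known, and, for single gRNAs, replicates 1 and 2 apart from 3 and 4 (a split read from the placeholder share, not from the labels), the bounds without the highest library, the ratio to the gRNAs 13 to 17 kb upstream the ratio with a library left out and its test within replicate numbers were added after seeing the data. The cause of each change below was not tested beyond what the setting itself does (fewer libraries, another scaling).

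For GFP-medium against bulk, the near tile moved to a log2 fold change of 0.72 (adjusted p = 0.216) under library totals and 0.67 (0.630) in replicates 3 and 4 alone. The middle tile moved to 1.05 (0.174) under library totals, 1.41 (0.0560) with the replicate block, 1.14 (0.369) in replicates 1 and 2 alone and 2.01 (0.101) in replicates 3 and 4 alone. The far tile moved to 1.25 (0.0653) under library totals and 1.99 (0.115) in replicates 3 and 4 alone. With 1 library left out, the near tile ranged over 0.66 to 1.59, the middle tile over 1.14 to 1.82 and the far tile over 1.55 to 1.99, and the call held in 3, 7 and 12 of 12 fits. For the near tile the fits that kept the call left out GFP-negative replicate 3, GFP-medium replicate 3 or GFP-medium replicate 4, and removing a GFP-negative library left its fold change at 1.34.

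For GFP-negative against bulk, the near tile turned to -0.90 under library totals and -0.14 with the replicate block, and ranged over -0.17 to 0.34 with 1 library left out (negative without GFP-negative replicates 1 or 4 at -0.17 and -0.10, and without bulk replicates 3 or 4 at -0.03 each). The far tile became -1.95 (0.00439) under library totals and ranged over -1.53 to -0.81, passing without GFP-negative replicate 3. For GFP-negative against GFP-medium, the near tile became -1.62 (0.00590) under library totals, -1.58 (0.00888) by DESeq2 and -1.23 (0.0238) with the replicate block, and ranged over -1.58 to -0.62 with 1 library left out. It passed without GFP-medium replicate 3 (0.0234) or 4 (0.0332). In the same comparison the middle tile was -1.81 (0.191) in replicates 1 and 2 and -2.12 (0.0814) in replicates 3 and 4, with -2.22 to -1.53 with 1 library left out, and the far tile was -2.58 (0.0814) in replicates 3 and 4.

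Single upstream gRNAs called higher in GFP-medium numbered 6 by DESeq2 and 0 by edgeR. Those called lower in GFP-medium numbered 13, against 23 without the filter, 23 with the replicate block, 0 in replicates 3 and 4 alone and 11 to 28 with 1 library left out (28, 21 and 20 without GFP-medium replicates 2, 3 and 4). Those called lower in GFP-negative against GFP-medium numbered 36, against 0 with the replicate block and 0 in replicates 1 and 2 or 3 and 4 alone, and 0 to 42 with 1 library left out (0 without GFP-negative replicate 1). Those lower in GFP-negative against bulk numbered 48 to 64 with 1 library left out and 34 to 63 under the other alternatives. The replicate block changed no other call of a tile and no other count by over 1.5 times.

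The ratio to the promoter for GFP-negative against bulk turned to 0.12 for the near tile when set against the gRNAs 13 to 17 kb upstream. For GFP-medium against bulk the middle tile turned to -0.13 against promoter gRNAs within 1 kb and -0.21 against those 13 to 17 kb upstream. With 1 library left out, this middle ratio ranged over -0.25 to 0.58 (-0.05 without GFP-medium replicate 2, -0.25 without replicate 4) and the near ratio over -0.50 to 0.03 (0.01 without GFP-medium replicate 3, 0.032 without replicate 4).

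Depth limits single gRNAs most in bulk, where 3 counts correspond to 36.2 to 76.7 CPM, against 6.15 to 11.9 CPM in GFP-negative and 11.2 to 24.7 CPM in GFP-medium libraries.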

Other observations

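The 1-kb tiles on either side of the window are given in order along the locus. For GFP-medium against bulk the log2 fold change was 0.94 ± 0.25 (SE; edgeR adjusted p = 0.00825) at chr8:43305000-43305999 in Zfp42, 1.77 ± 0.25 in the tile just inside its 5' end (chr8:43306000-43306999), 1.35 ± 0.35 in the tile that holds its 5' end (chr8:43307000-43307999) and 1.06 ± 0.52 in the tile just before the window (chr8:43308000-43308999; SE, edgeR adjusted p = 5.99e-05, 0.00771 and 0.157). It was then 1.34, 1.56 and 1.81 in the near, middle and far upstream tiles, and, in the 4 tiles beyond the gap from chr8:43320000-43320999 to chr8:43323000-43323999, 1.99 ± 0.35, 2.07 ± 0.44, 1.35 ± 0.51 and 0.86 ± 0.61 (SE; adjusted p = 2.90e-04, 0.00148, 0.0577 and 0.344). For GFP-negative against bulk the tiles up to the window gave 1.56 ± 0.25, 1.34 ± 0.25, 0.95 ± 0.35 and 0.38 ± 0.51 (SE; edgeR adjusted p = 1.02e-04, 2.66e-04, 0.0514 and 0.706), then 0.04, -0.40 and -1.01 in the upstream tiles and 0.01 ± 0.34, -0.56 ± 0.42, 0.02 ± 0.50 and -0.45 ± 0.61 in the 4 beyond the gap (SE; adjusted p = 0.992, 0.403, 0.992 and 0.706). No trend along the locus was tested.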
